A study of Homo sapiens with 6 samples.

Results

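The apolipoprotein L (APOL) genes were followed in DU-145, an established human prostate cancer cell line, as the 5 genes APOL1, APOL2, APOL3, APOL4 and APOL6, each found by its symbol among 60662 genes of the deposited count table. All cultures bore the same stable vector, from which tetracycline-type drugs switch on a hairpin against the transmembrane mucin gene MUC1. All received the cytokine interferon-gamma (IFN-gamma), dosed at 10 ng/ml, over the last 24 hours. The 3 DOX-negative cultures had been kept in vehicle and the 3 DOX-positive cultures in doxycycline (DOX), which turns on the hairpin, for 7 days. The comparison asks how the APOL genes of IFN-gamma-treated cells differed once the hairpin had been induced. It rests on 1 cell line and 1 hairpin vector. Unstimulated cells and cells with a control hairpin under DOX were not analysed here, so the effects of DOX and of the hairpin cannot be told apart and the response to IFN-gamma itself was not measured.

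The APOL genes are a primate-expanded family that encodes membrane-active proteins. They lie in a cluster on chromosome 22 and are induced by interferons in many human cells. APOL1, the only secreted member, travels on high-density lipoprotein and lyses trypanosomes by forming ion channels. The others stay inside the cell, and APOL3 acts like a detergent on bacteria that have reached the cytosol. IFN-gamma acts through its receptor chains and the kinases JAK1 and JAK2, and raises transcription factors such as IRF1.

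Libraries held from 87739734 to 150921436 reads. The hairpin's target MUC1 stood at 20.4 to 22.2 CPM (read counts scaled to the size of the library, with TMM factors) without DOX and at 1.31 to 1.53 CPM with it, as the labels would have it. All 6 epithelial markers (KRT8, KRT18, KRT19, EPCAM, CDH1 and CLDN7) were present and rose, their summed level going from between 831.4 and 883.6 CPM to between 2314 and 2406 CPM. Of the luminal prostate markers, KLK3 had no read and KLK2 had at most 2 reads in any library. Leukocyte markers summed to between 1.21 and 1.33 CPM in DOX-negative and between 0.360 and 0.464 CPM in DOX-positive cells, with CD3E and MS4A1 at 0. Endothelial markers summed to between 0.852 and 0.875 CPM against 0.417 to 0.574 CPM, and fibroblast markers to between 6.17 and 7.11 CPM against 4.64 to 4.98 CPM, with LUM at 0. The part of this shift in markers in the APOL result was not tested. In such bulk RNA, fewer cells expressing a gene and less RNA per cell cannot be told apart.

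Because the members are related in sequence, reads of one could in principle be counted for another. Stretches that 2 members share in their coding sequence are shown here to let a reader judge how far apart they are there. Printed are the longest coding run of all, in APOL1 and APOL2, and a run of APOL3 and APOL4. APOL2 and APOL4 share another run as long as the latter, which is not printed. Each line is GRCh38 reference sequence from GENCODE 29 transcripts, 5′ to 3′ on the gene's own strand, with the shared run in capitals and 30 bases of flank in lower case.
APOL1: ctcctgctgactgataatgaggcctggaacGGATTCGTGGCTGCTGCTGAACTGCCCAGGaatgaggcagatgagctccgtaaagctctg
APOL2: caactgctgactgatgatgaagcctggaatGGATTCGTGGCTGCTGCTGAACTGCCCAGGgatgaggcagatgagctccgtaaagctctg
APOL3: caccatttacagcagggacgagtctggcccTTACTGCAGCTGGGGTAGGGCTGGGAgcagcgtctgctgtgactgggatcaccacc
APOL4: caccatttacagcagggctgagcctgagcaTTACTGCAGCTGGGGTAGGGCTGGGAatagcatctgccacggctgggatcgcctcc

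The APOL1 stretch (chr22:36261664-36265181, plus strand) and the APOL2 stretch (chr22:36228250-36231398, minus strand) are both interrupted by an intron in the genome. They share a run of 30 bases and differ at 6 of 90 positions when laid side by side without gaps. The APOL3 stretch (chr22:36141698-36141783, minus strand) and the APOL4 stretch (chr22:36191564-36191649, minus strand) each lie within 1 exon, share 26 bases and differ at 15 of 86 positions. Over the 15 pairs that can be formed from the members and APOL5, the remaining family gene, the longest shared coding run was 11 to 30 bases, and for pairs with APOL6 it was at most 14 bases. Over all annotated exons, 0.608% of the 50-base windows of APOL1, 0.383% of those of APOL2, 0.14% of those of APOL3 and none of those of APOL4 and APOL6 occurred in another APOL gene. Such shared windows are longer than the longest shared coding run, so the printed stretches do not show the closest likeness between members. Windows shared with genes outside the family were 3.33% for APOL1, 1.53% for APOL2, 2.07% for APOL4 and 0.417% for APOL6. No other annotated gene overlapped a member on either strand. The members are therefore mostly distinct at this window length, while the sources used here do not give the read length or the way shared reads were counted.

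In DOX-positive cells 4 of the 5 APOL genes fell: APOL3 by 2.45-fold, APOL1 by 2.08-fold, APOL6 by 1.75-fold and APOL2 by 1.38-fold. APOL4 was close to the detection limit and its difference did not pass the test. No member rose. Each of the 4 that fell had a DOX-negative range lying wholly above its DOX-positive range. Across all 24695 genes tested with edgeR, 56.5% were called at an adjusted p under 0.05, 28.9% as lower and 27.6% as higher, and 32.6% were lower without overlap of the groups, so a fall by itself was common among the genes of these cells. A called decrease of at least 2-fold, which APOL3 and APOL1 had, was seen in 9.38% of the genes tested.

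**Figure D1:**
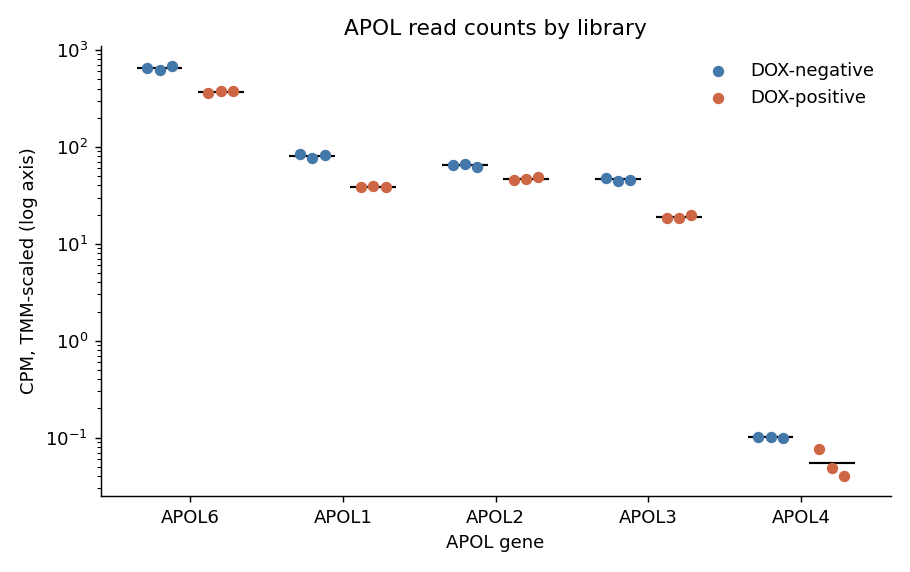
Level of each APOL gene in each of the 6 libraries, in TMM-scaled CPM on a log axis; points are libraries, blue for DOX-negative and orange for DOX-positive, and bars are group means. APOL6 lies between 359.9 and 676.7 CPM and APOL4 at or below 0.102 CPM, and the DOX-positive points of APOL1, APOL2, APOL3 and APOL6 lie below their DOX-negative ones.

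APOL1 (ENSG00000100342.20) encodes the trypanolytic factor of human serum and lies at 36253010 to 36267530 on the plus strand of chromosome 22 (GRCh38). It read 83.9, 77.2 and 82.4 CPM in DOX-negative replicates 1, 2 and 3, from 8343, 11342 and 7550 reads. In DOX-positive replicates 1, 2 and 3 it read 38.9, 39.2 and 38.9 CPM, from 4098, 5668 and 3854 reads. The 3 DOX-positive values were nearly equal, and all lay below the lowest DOX-negative value. The mean went from 81.2 ± 3.50 to 39.0 ± 0.203 CPM (SD, n = 3 each), which is a log2 fold change of -1.06 with SE 0.03 (edgeR adjusted p = 2.46e-13).

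APOL3 (ENSG00000128284.19; 36140330 to 36166177, minus strand), the member that attacks cytosolic bacteria, showed the largest fold change of the 4 genes that fell. It read 48.0, 44.8 and 45.5 CPM in DOX-negative cells against 18.3, 18.5 and 19.7 CPM in DOX-positive cells. The groups were well apart, with the highest DOX-positive value under the lowest DOX-negative one. The mean went from 46.1 ± 1.64 to 18.8 ± 0.752 CPM (SD, n = 3 each), which is a log2 fold change of -1.30 with SE 0.04 (edgeR adjusted p = 1.33e-13). Of all genes tested, 5.94% had a lower log2 fold change than APOL3 and 9.12% a lower one than APOL1.

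APOL6 (ENSG00000221963.6; 35648395 to 35668409, plus strand), which can trigger apoptosis when overexpressed, was by far the most abundant member. It read 651.1, 619.3 and 676.7 CPM in DOX-negative cells and 359.9, 374.2 and 375.8 CPM in DOX-positive cells, without overlap. The mean went from 649.0 ± 28.8 to 370.0 ± 8.79 CPM (SD, n = 3 each), which is a log2 fold change of -0.81 with SE 0.03 (edgeR adjusted p = 5.01e-12). Only 0.895% of the genes tested had a higher mean CPM over the 6 libraries, on a scale that also grows with transcript length. APOL6 has 1 annotated transcript, and the deposited length column gives it 10065 bases.

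APOL2 (ENSG00000128335.14; 36226203 to 36239954, minus strand), an intracellular member, fell least. It read 65.0, 65.8 and 62.6 CPM in DOX-negative cells and 45.1, 46.3 and 49.1 CPM in DOX-positive cells. The groups did not overlap, but they lay closer together than for APOL1, APOL3 and APOL6. The mean went from 64.4 ± 1.66 to 46.8 ± 2.07 CPM (SD, n = 3 each), which is a log2 fold change of -0.46 with SE 0.04 (edgeR adjusted p = 1.29e-08). Of all genes tested, 26.1% lay lower than APOL2.

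APOL4 (ENSG00000100336.17; 36189124 to 36204840, minus strand) gave 10, 15 and 9 reads in the DOX-negative libraries and 8, 7 and 4 reads in the DOX-positive libraries. Summed, these were 34 reads (95% exact Poisson interval 23.5 to 47.5) and 19 reads (11.4 to 29.7), intervals that cover counting error only and that overlap. Its log2 fold change of -0.87, with SE 0.51, did not pass (edgeR adjusted p = 0.159), although its CPM values did not overlap between groups. It entered the test only through the DOX-negative libraries, which alone reached the minimum level. APOL5 (ENSG00000128313.2; 35717872 to 35729483, plus strand), which is not among the 5 members, gave 4, 9 and 4 reads in DOX-negative cells and none in DOX-positive cells. Summed, these were 17 reads (95% exact Poisson interval 9.90 to 27.2) and 0 reads (0 to 3.69), intervals that cover counting error only. With 3 reads over the group taken as the limit that a count of 0 allows, the summed level was 5.86-fold lower in DOX-positive cells. That ratio leaves out the counting error of the DOX-negative reads, so it is not a lower bound. APOL5 did not reach the minimum count and was not tested in the main analysis. With no filter, edgeR gave APOL5 an adjusted p of 0.00995.

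**Figure D2:**
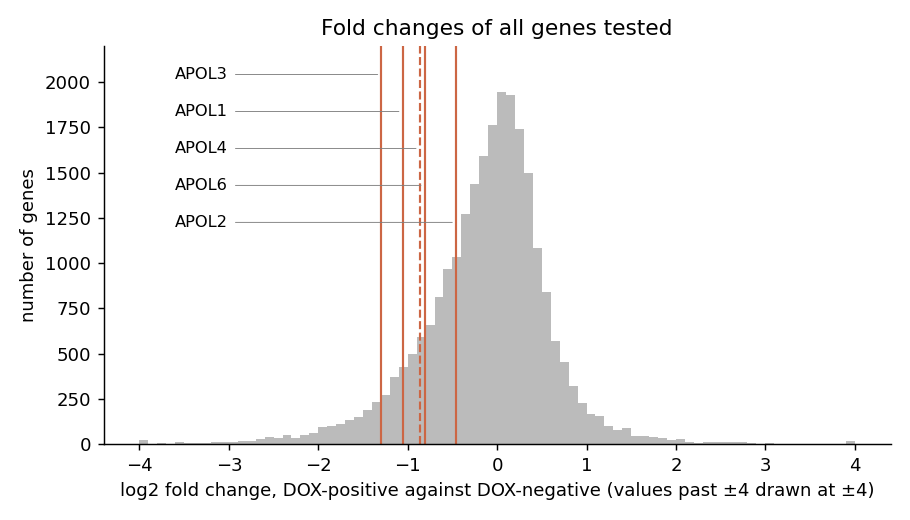
Histogram of the log2 fold change (DOX-positive against DOX-negative) of the 24695 genes tested, with values past ±4 drawn at ±4; vertical lines mark the APOL genes, dashed for APOL4, which did not pass the test. The 4 solid lines lie between -1.30 and -0.46, left of the peak of the histogram.

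Dividing by the deposited gene length allows the members to be compared with each other approximately. For APOL1, APOL3 and APOL4 that length equals the combined length of all annotated exons. APOL3 has 21 annotated transcripts, APOL1 12, APOL4 12, APOL2 9 and APOL6 1. Which of them the cells used was not measured, so the order of the members depends on the length chosen for the scale. On this scale, RPKM (CPM divided by the length in kilobases), DOX-negative cells held 64.5 ± 2.86 of APOL6, 23.1 ± 0.994 of APOL1, 18.9 ± 0.487 of APOL2, 7.81 ± 0.278 of APOL3 and 0.0229 ± 0.000445 of APOL4 (SD, n = 3 each). In DOX-positive cells the levels were 36.8 ± 0.873 for APOL6, 13.7 ± 0.605 for APOL2, 11.1 ± 0.0577 for APOL1, 3.19 ± 0.127 for APOL3 and 0.0125 ± 0.00425 for APOL4. Neighbours in each of these orders had ranges over the 3 libraries that did not overlap.

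On the RPKM scale, APOL1 and APOL2 changed places between the groups. The level of APOL1 per length lay between 21.95 and 23.8 RPKM in DOX-negative cells, above the 18.3 to 19.3 of APOL2. In DOX-positive cells it lay between 11.0 and 11.1, below the 13.2 to 14.4 of APOL2. The reads showed the same without any scaling: APOL1 had 1.29, 1.17 and 1.32 reads for each APOL2 read in the DOX-negative libraries and 0.861, 0.847 and 0.791 in the DOX-positive libraries.

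Ratios of reads within a library do not depend on how libraries are scaled, and they were compared for the 4 members with at least 10 reads in every library. In all 6 pairs the 3 DOX-positive ratios lay clear of the 3 DOX-negative ones. With 3 libraries against 3 the smallest p an exact permutation test can give is 0.10, and each pair reached it (two-sided, adjusted p = 0.10 over the 6 pairs), so none can pass 0.05 in this design. The change was largest for APOL2 over APOL3, at 0.83 on the log2 scale (SE 0.04), from 1.35, 1.47 and 1.37 APOL2 reads for each APOL3 read to 2.47, 2.50 and 2.50. APOL1 over APOL2 changed by -0.60 (SE 0.06) and APOL3 over APOL6 by -0.48 (SE 0.05). APOL2 over APOL6 changed by 0.35 (SE 0.06), APOL1 over APOL6 by -0.25 (SE 0.03) and APOL1 over APOL3 by 0.24 (SE 0.04).

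**Figure D3:**
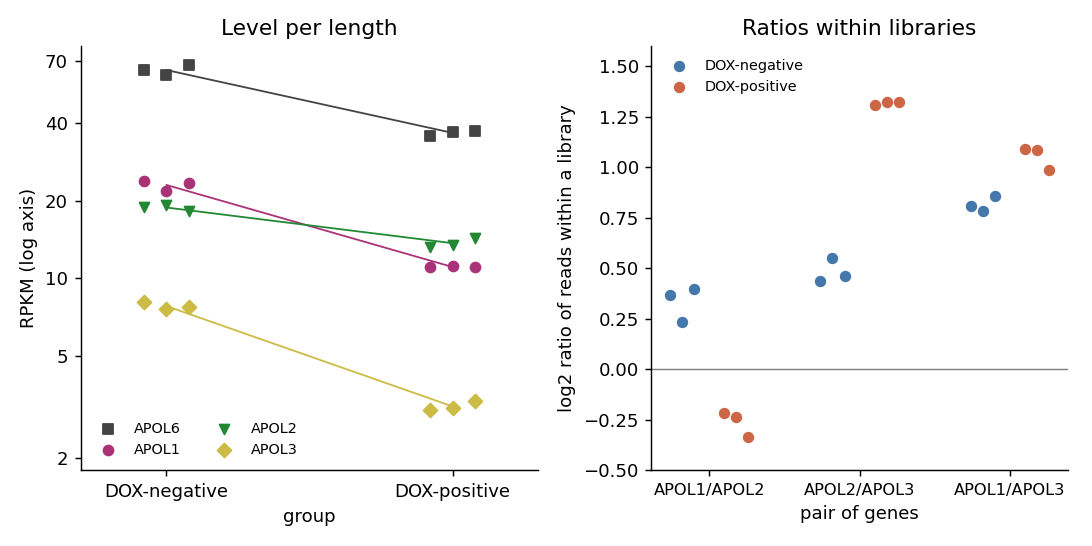
Left, level of 4 APOL genes per library in RPKM on a log axis, with lines joining group means. Right, log2 ratio of the reads of 2 members within each library, blue for DOX-negative and orange for DOX-positive; the APOL1 to APOL2 ratio lies above 0 in the 3 DOX-negative and below 0 in the 3 DOX-positive libraries.

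Summed over the 5 genes, the level went from 840.9 ± 30.7 to 474.6 ± 11.1 CPM (SD, n = 3 each), a sum that APOL6 dominates. APOL6 held 77.2 ± 0.736% of the family's reads in DOX-negative cells and 77.9 ± 0.271% in DOX-positive cells. These ranges overlapped, at 76.7 to 78.0% and 77.7 to 78.2%. The share of APOL2 went from 7.68 ± 0.467% to 9.87 ± 0.259%, that of APOL1 from 9.66 ± 0.208% to 8.22 ± 0.183% and that of APOL3 from 5.49 ± 0.212% to 3.96 ± 0.1004%, each without overlap.

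The cluster spans 619.1 kb from the start of APOL6 to the end of APOL1, with RBFOX2, a splicing regulator, between APOL5 and APOL3. Of 13 other protein-coding genes within 500 kb of the cluster, 12 were tested, of which 3 fell and 5 rose while 4 missed the threshold. The shares over all genes tested were 28.9% lower and 27.6% higher. The median log2 fold change of these neighbours was 0.05, against -0.04 for all genes tested. RBFOX2, in the middle of the cluster, rose from 274.5 ± 5.97 to 305.5 ± 4.04 CPM (log2 fold change 0.15, edgeR adjusted p = 0.000476). Of 14 genes inside the cluster that are not protein-coding, 2 were tested, of which 1 fell and 1 missed the threshold. Their median log2 fold change was -0.75, from low group means of at most 0.976 CPM. MYH9, the non-muscle myosin heavy chain gene next to APOL1, rose from 984.1 ± 25.1 to 1324 ± 18.9 CPM (log2 fold change 0.43). TXN2, the mitochondrial thioredoxin, rose by 0.70 and the translation initiation subunit EIF3D by 0.16 on the log2 scale. On the other side of APOL6, the endosomal adaptor TOM1 rose by 0.35 on the log2 scale. Also on that side, RASD2, a small GTPase, fell by 1.96 from a low level of 1.13 ± 0.131 CPM. The heme oxygenase HMOX1 there fell by 0.52 and HMGXB4 by 0.12. The replication helicase MCM5 (0.05), the myoglobin gene MB (0.03), FOXRED2 (0.05) and IFT27 (-0.16) did not pass, and CACNG2 had no read. With libraries scaled by size alone 3 neighbours rose and 5 fell. RBFOX2 and EIF3D then lost their calls (log2 fold changes 0.01 and 0.02), and MCM5, FOXRED2 and MB changed sign. HMGXB4 lost its call with DESeq2 size factors (edgeR adjusted p = 0.0946). IFT27 was called lower with upper-quartile scaling (edgeR adjusted p = 0.0130) and with library size alone, and MCM5 with library size alone (edgeR adjusted p = 0.0160). MCM5, FOXRED2 and MB also changed sign with upper-quartile scaling.

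**Figure D4:**
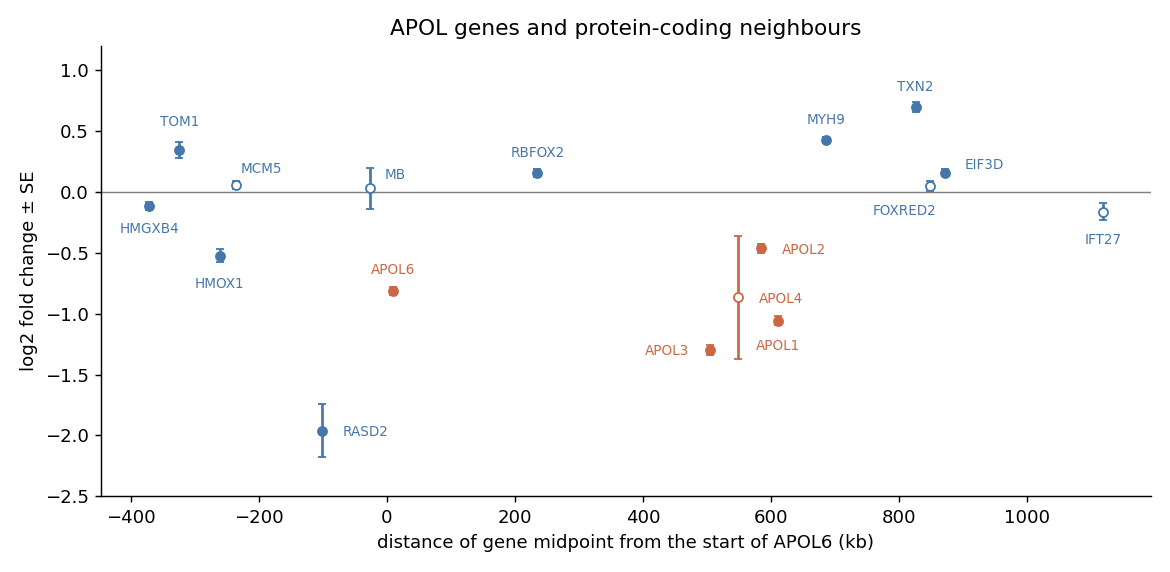
Log2 fold change with its SE for the 5 APOL genes (orange) and 12 protein-coding neighbours (blue), by distance of each gene's midpoint from the start of APOL6 in kb; filled points passed an edgeR adjusted p under 0.05 and open points did not. The 4 filled APOL points lie between -1.30 and -0.46, while RBFOX2 and MYH9, inside and beside the cluster, lie at 0.15 and 0.43.

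Of 17 genes for the IFN-gamma receptor, JAK-STAT factors and IRF factors, 12 fell and 4 rose while 1 missed the threshold. Their median log2 fold change was -0.45. Over all genes tested, 28.9% were called lower and 27.6% higher. IFNGR1, the ligand-binding receptor chain, fell from 39.2 ± 1.64 to 17.0 ± 0.232 CPM (log2 fold change -1.21). STAT2 and IRF7, which act in the response to type I interferon, fell by 0.89 and 1.11 on the log2 scale, and the kinase gene JAK1 rose by 0.64. IRF1 fell by 0.45 on the log2 scale and was named after its value was seen.

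Among 13 genes for factors that act on bacteria inside the cell, 11 were tested. Of these 7 fell and 3 rose while 1 missed the threshold, and the median log2 fold change was -0.86. Among all genes tested 28.9% were called lower and 27.6% higher. The 7 that fell were RNF213, a ubiquitin ligase that coats bacteria, and all 6 guanylate-binding protein genes that were tested. GBP1, whose protein opens the outer membrane of bacteria to APOL3, fell from 151.3 ± 8.12 to 67.4 ± 1.07 CPM (log2 fold change -1.17). GBP4 fell by 1.59, GBP5 by 1.39 and RNF213 by 0.86 on the log2 scale. OPTN, LGALS8 and CALCOCO2, which link damaged or coated bacteria to autophagy, were the 3 that rose, by 0.37, 0.18 and 0.16, and they were named after their values were seen. With library size alone OPTN was the 1 that rose, by 0.23.

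Genes for reported partner proteins of APOL1 and APOL3 were often too low to test. Of 9, 4 were tested, and PLAUR, the urokinase receptor, rose by 0.59, VAMP8, a vesicle fusion protein, by 0.58 and PI4KB, a Golgi lipid kinase, by 0.41 on the log2 scale. A called rise was seen in 27.6% of all genes tested and a called fall in 28.9%. NCS1, a calcium sensor that works with PI4KB, read 66.4 ± 2.42 and 66.6 ± 0.848 CPM, and its log2 fold change of 0.00 did not pass (SE 0.03, edgeR adjusted p = 0.928). With library size alone NCS1 was called lower, at -0.14. HPR and APOA1, which ride with APOL1 on its lipoprotein particle, had at most 15 reads in any library and were not tested. These were also named after their values were seen. Of 16 apolipoprotein genes outside the APOL family, which share the name but not the sequence family, 6 were tested. Of these APOOL, a mitochondrial membrane protein gene, rose by 0.38, APOC1 fell by 0.72, and APOM (0.38) and APOO (-0.15) did not pass, nor did APOE (0.11) and APOF (-0.01), which were named after their values were seen. APOM was called higher with DESeq2 size factors (edgeR adjusted p = 0.0395), APOO was called lower with upper-quartile scaling (edgeR adjusted p = 0.0363) and with library size alone, and with library size alone APOE changed sign, as APOF did with DESeq2 size factors.

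The genes whose centred log2 CPM over the 6 libraries ran closest to each member were found among 15009 genes with a mean of at least 1 CPM. Closest to APOL1 were UNC93B1 (Euclidean distance 0.0450), LAMB1 (0.0472) and UHMK1 (0.0572). Closest to APOL3 were LINC00346 (0.0369), SRP9 (0.0536) and ZNF33B (0.0603). For APOL6 they were YIPF4 (0.0298), OSBPL8 (0.0385) and CNOT6 (0.0400), and for APOL2 DPY19L2P2 (0.0356), SMAD9 (0.0441) and ZSWIM9 (0.0556). For APOL4 the nearest genes were farther away, at 0.205 for ZBED3-AS1, 0.214 for TTN and 0.252 for AL662884.5. No APOL gene was among the 3 nearest of another, and the likeness mostly reflects a similar difference between the 2 groups.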

How the data were processed

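The deposited table gives the authors' raw read count per gene and library, beside a gene length. Per the submitters' processing notes, STAR 2.7.9a, CASAVA 1.8.2 and DESeq2 1.24.0 were used, in no stated role, with GRCh38.p7. The sources used here do not give the counter, annotation or strand setting. Per the labels' protocols, libraries were strand-specific and from polyadenylated RNA. Groups and replicate numbers came from sample titles. The labels do not say that cultures came from separate days, so p-values measure only the spread between these samples. Every pair of libraries differed by more than sampling noise (chi-square per degree of freedom at least 6.40).

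Counts were tested over all genes by edgeR 4.0.16 (quasi-likelihood test, R 4.3.3), using TMM scaling, filterByExpr (minimum count 10, minimum total 15), group as the only term and Benjamini-Hochberg adjustment over 24695 genes at 0.05. A log2 fold change is DOX-positive against DOX-negative, and its SE is its size over the square root of F. The test was also run on simulated counts, with the same dispersion (scatter beyond counting error) for every gene and few changed genes. That setting is simpler than these data, so no result here rests on it. Exact permutation tests used SciPy 1.17.1. Positions, gene types and transcripts are from GENCODE 29 on GRCh38, matched by gene ID without version. Alternatives were other scalings, filters, DESeq2 1.42.0, limma-voom (limma 3.58.1), a replicate block and leaving out each library. Named genes were the members, APOL5, MUC1, up to 4 genes per list with the smallest p, all protein-coding neighbours within 500 kb, and the 3 genes nearest each member. Others are marked, and 2 genes of these lists are not reported here. The members and lists were chosen with earlier results of these data known.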

Additional observations from a re-analysis of the deposited data

How the results depend on the processing

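Direction and side of the threshold held for APOL1, APOL2, APOL3 and APOL6 under all 14 alternatives, with log2 fold changes of -1.20 to -1.01, -0.60 to -0.42, -1.44 to -1.24 and -0.95 to -0.76. The lower end of each range came from library size alone, which moved the median of all genes tested from -0.04 to -0.19. APOL4 stayed short of the threshold in the 13 alternatives that tested it (adjusted p 0.0972 to 0.434) and was not tested with at least 1 CPM in 3 libraries. APOL5 was tested in only 2 settings, with no filter (edgeR adjusted p = 0.00995) and with DESeq2 (adjusted p = 0.0161). Over all genes 6825 were called higher and 7132 lower, against 4689 and 9579 with library size alone, which raised the share of lower calls from 51.1% to 67.1%. With the replicate number as a block, 6670 were higher and 6833 lower, 4 members were lower and no call of a member changed. Same-numbered libraries of the 2 groups did not deviate together (r = -0.07, -0.03 and 0.01 for replicates 1, 2 and 3), so the numbers were not taken as a pairing. All 6 pair ratios kept their direction without any 1 library. With library size alone the called-lower counts moved to 1 for partner genes and 2 for other apolipoprotein genes. APOL4 and APOL5 had 15 reads or fewer in each library, so their values are imprecise.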
